A study of Mus musculus with 16 samples.

Results

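The expression of 60 genes of the bone morphogenetic protein (BMP) and transforming growth factor beta (TGF-β) pathways was described among 33531 gene symbols in mouse endothelial libraries. The genes were chosen by symbol alone: BMP, GDF, TGF-β and activin subunit genes, their receptors and co-receptors, extracellular modulators such as Nog, Chrd, Fst, Grem1 and Bmper, the latent TGF-β binding proteins, the SMAD genes and the Id genes. The rule uses no measured value. RNA of 16 libraries was sequenced, 2 for each of the 8 groups that cross stage (embryonic day E9.5 or E10.5) with site (embryo region or yolk sac) and sorted cell type. The cell types were endothelial cells (EC) and hemogenic endothelial cells (HE), the endothelium from which blood cells bud. Cells of all groups came from conceptuses of strain Runx1tm4Dow x B6C3F1, made by mating superovulated B6C3F1/J females with males homozygous for the Runx1-GFP allele, so EC and HE alike carried the reporter allele. Per the labels, EC were sorted as Runx1-GFPneg, CD31+, kit-, CD41- and CD45-, and HE as Runx1-GFP+, CD31+, kit lo/-, CD41- and CD45-. The embryo region held the aorta-gonad-mesonephros, some somite tissue, and the umbilical and the vitelline vessels. The labels do not give the replicates separate litters, so a p-value here reflects the spread among the samples alone, and that spread may be technical.

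BMP and TGF-β ligands are secreted dimers that bring type I and type II receptor kinases together. BMP receptors phosphorylate SMAD1, SMAD5 and SMAD9, TGF-β and activin receptors phosphorylate SMAD2 and SMAD3, and both sets enter the nucleus with SMAD4, where Id genes are among the direct BMP targets. Outside the cell noggin, chordin and follistatin trap ligands, and latent binding proteins hold TGF-β in the matrix. In the early conceptus BMP4 is needed for blood-forming mesoderm, and endoglin and the TGF-β receptors are known for their roles in vessel formation.

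Values were FPKM, a level per length of transcript that allows genes to be set side by side. Over the libraries the sum of FPKM lay between 586501 and 785252, 11639 to 12527 genes reached 1 FPKM, and the 2 replicates of a group correlated at 0.939 to 0.983 across genes. Read depth is unknown, and the number of libraries limits the precision. Both HE-labelled E10.5 yolk sac libraries stood apart from the rest. Their Runx1 level, 2.19 and 2.17 FPKM, was not separated from the 2.60 and 2.04 FPKM of EC there, whereas Runx1 was higher in both HE than in both EC libraries of the other 3 settings. Their Pecam1 level, which encodes the CD31 of the gate, was 47.6 and 12.6 FPKM against 165 and 138 FPKM in EC. The summed level of 12 endothelial genes was 196 to 593 FPKM in them, 2233 to 2539 FPKM in the EC libraries of that setting and at least 769 FPKM in every other library. Replicate 2 of HE of the E9.5 yolk sac had that 769 FPKM, and its Pecam1 level was 48.8 FPKM. It stays in when the HE-labelled E10.5 yolk sac libraries are left out. Many results that rest on the HE-labelled E10.5 yolk sac libraries are therefore given with and without them. Not every value without these libraries is printed. Leaving them out also narrows what is averaged: HE against EC then covers 3 settings, the sites are compared in HE at E9.5 alone, and the stages are compared in HE in the embryo alone. For the sites and stages in HE, the part of these libraries and the part of the narrower comparison cannot be told apart.

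Of the 60 genes, 45 reached 1 FPKM in at least 2 libraries and were tested, among 13955 genes in all. The other 15 were under that limit and are named only: the ligand genes Bmp3, Bmp8a, Bmp8b, Bmp10, Bmp15, Gdf3, Gdf5, Gdf7 and Gdf9, both activin subunit genes Inhba and Inhbb, the receptor genes Acvr1c and Bmpr1b, the antagonist Grem1 and the latent binding protein Ltbp2. Bmp8a and Bmp8b are near-identical copies, and Gdf1 shares a transcript with a neighbouring gene, so their values are uncertain. A single ligand gene led each of the main ligand classes. Bmp4 held 51.3% to 76.9% of the summed FPKM of the 10 BMP ligand genes and was the highest of them in 16 of 16 libraries. Tgfb1 held 70.2% to 98.2% of the summed FPKM of the 3 TGF-β genes, again the highest in 16 of 16. Ligand levels in HE and EC were thus mostly those of Bmp4 and Tgfb1, at means of 26.0 and 71.2 FPKM.

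Among receptors and transducers the endothelial co-receptor Eng was the most abundant, at a mean of 145 FPKM. Acvr1, the BMP type I receptor ALK2, had a mean of 15.5 FPKM and led the type I receptors in 11 of 16 libraries. Tgfbr2, the TGF-β type II receptor, had a mean of 19.8 FPKM and led its class in 15 of 16. Smad4, the SMAD shared by both branches, led the signalling SMADs in 16 of 16 libraries at a mean of 33.3 FPKM, and Smad6, an inhibitor of BMP signalling, stood above Smad7 in 16 of 16 at 29.2 FPKM. Id3, an inhibitor of basic helix-loop-helix factors, was the highest Id gene in 15 of 16 libraries at a mean of 201 FPKM. Bmp1, a matrix protease that cleaves chordin and procollagen and no ligand despite its symbol, had a mean of 36.1 FPKM. Gdf6 led the GDF ligands in 12 of 16 libraries, at a mean of only 4.04 FPKM, and Gdf11 led them in all 4 E10.5 embryo libraries.

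Acvr1 in EC read 15.9 and 15.3 FPKM in the E9.5 embryo, 12.9 and 16.1 in the E10.5 embryo, 23.2 and 15.6 in the E9.5 yolk sac and 17.8 and 12.6 in the E10.5 yolk sac. Acvr1 in HE read 14.9 and 18.1 FPKM in the E9.5 embryo, 15.6 and 16.1 in the E10.5 embryo, 16.8 and 11.998 in the E9.5 yolk sac and 15.5 and 8.90 in the E10.5 yolk sac. HE and EC overlapped in all 4 settings, HE of the E10.5 yolk sac lay below HE of the E10.5 embryo, and Acvr1 was called in no comparison. Smad4 in EC read 32.9 and 35.5 FPKM in the E9.5 embryo, 33.3 and 40.7 in the E10.5 embryo, 36.9 and 35.0 in the E9.5 yolk sac and 30.1 and 29.5 in the E10.5 yolk sac. Smad4 in HE read 32.7 and 36.6 FPKM in the E9.5 embryo, 23.1 and 37.2 in the E10.5 embryo, 31.5 and 34.2 in the E9.5 yolk sac and 30.3 and 32.5 in the E10.5 yolk sac. Both EC libraries of the E10.5 yolk sac were below those of the other EC groups, and Smad4 too was called in no comparison. Smad6 in EC read 30.4 and 30.7 FPKM in the E9.5 embryo, 20.9 and 21.1 in the E10.5 embryo, 37.1 and 33.7 in the E9.5 yolk sac and 26.0 and 23.9 in the E10.5 yolk sac. Smad6 in HE read 42.5 and 41.3 FPKM in the E9.5 embryo, 30.2 and 20.5 in the E10.5 embryo, 32.9 and 28.6 in the E9.5 yolk sac and 24.8 and 22.9 in the E10.5 yolk sac. Smad6 was highest in HE of the E9.5 embryo and near 20 to 30 FPKM in every E10.5 library of either site.

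**Figure D1:**
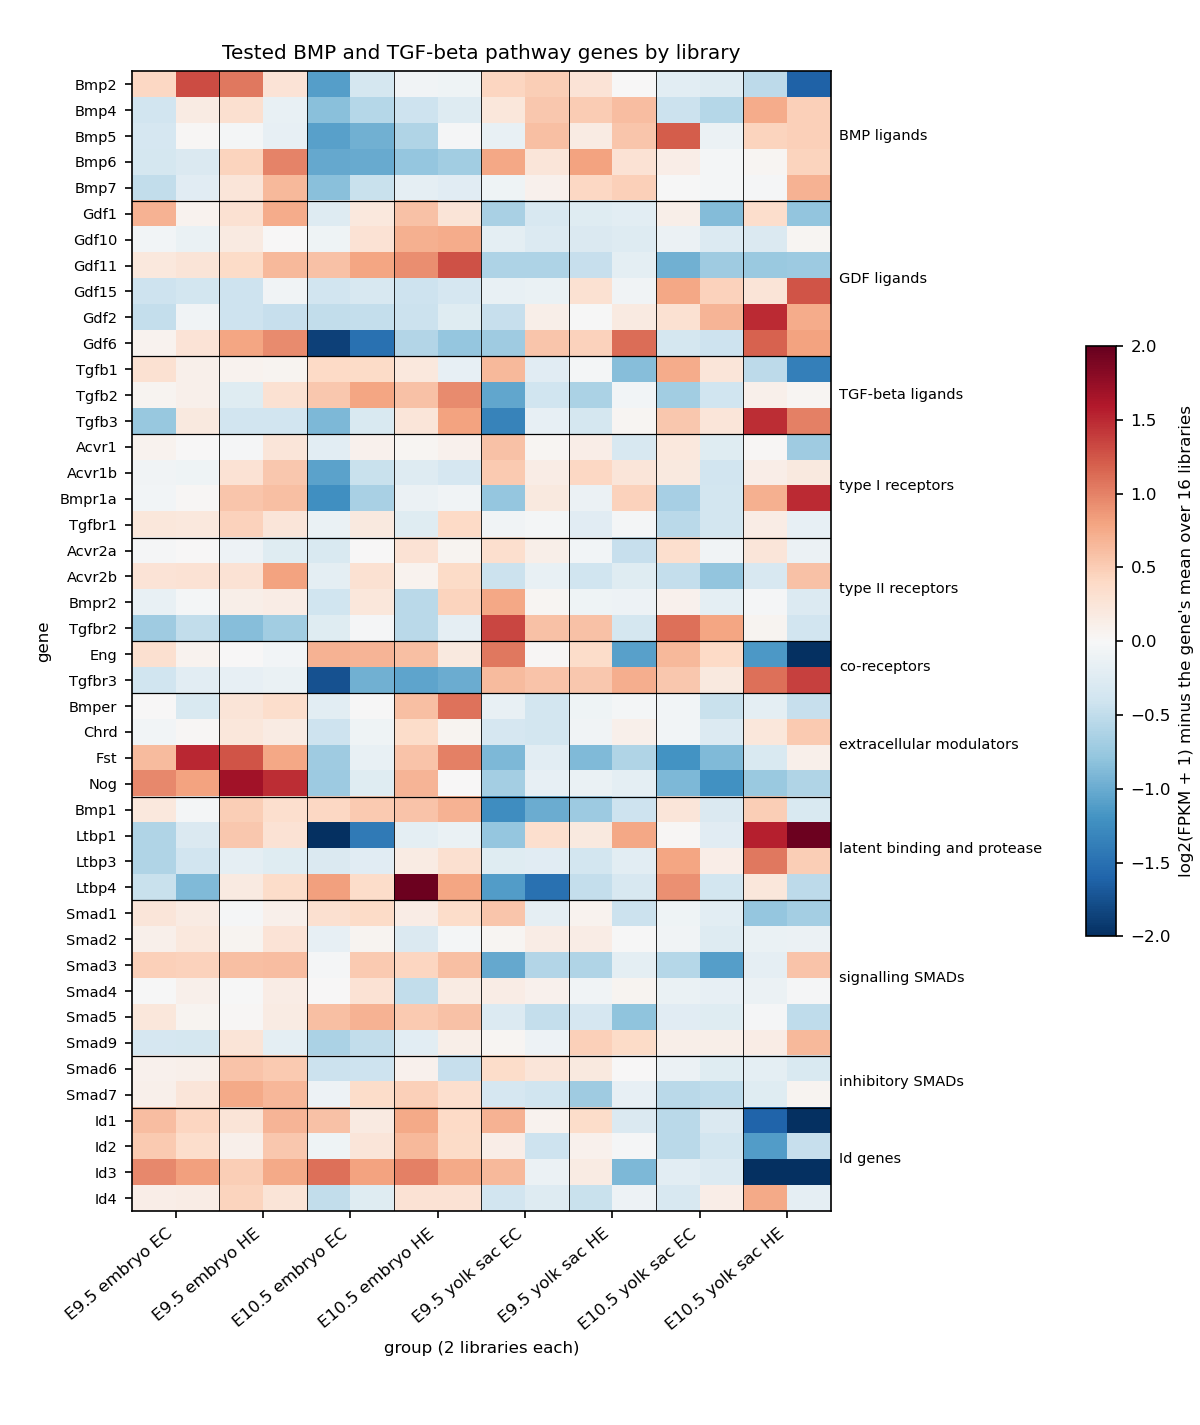
Level of 44 of the 45 tested genes in the 16 libraries, as log2(FPKM + 1) minus the gene's mean over all libraries (colour, red above and blue below the mean, the colour ending at 2 either way). Columns are libraries in 8 groups of 2 and rows are genes ordered by role. Id1, Id3 and Eng are bluest in the HE-labelled E10.5 yolk sac libraries, where Ltbp1, Gdf2 and Tgfb3 are reddest.

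HE was compared with EC to ask which pathway genes differ between endothelium that expresses the Runx1 reporter and endothelium that does not. Averaged over the 4 settings of stage and site, 13 members passed the test, 9 of them higher and 4 lower in HE. Those higher were 3 ligand genes (Bmp4, Bmp7, Gdf6), the BMP receptor gene Bmpr1a, the BMP modulators Nog, Chrd and Bmper, Smad9 and Ltbp1. Of these, Chrd, Bmper and Smad9 reached 1 FPKM in HE libraries alone and so were tested only through HE. Those lower were Eng, Id3, Tgfb1 and Tgfbr2. The 13 of 45 members compare with 12.4% of all tested genes called in this comparison (6.70% higher, 5.67% lower), and the median difference was 0.26 over the members and 0.029 over all tested genes on the log2(FPKM + 1) scale, which all differences below use. That scale understates the change of low genes. A gene was called at an adjusted p under 0.05 by limma, a linear model fitted across all tested genes, and errors are standard errors with 2 libraries per group.

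These calls moved when libraries were left out, and HE and EC libraries also differed in the genes of other cell types. Of the 12 endothelial genes 11 were lower in HE, with none listed at 0, and the part of endothelial content in the 4 falls was not tested. Of 14 mesenchyme and somite genes 4 were called higher in HE and 1 lower, and 12 had a difference above 0. Their sums were 864 to 7341 FPKM in HE and 214 to 3961 FPKM in EC over the settings. Of them Col1a1 was listed at 0 in both HE-labelled E10.5 yolk sac libraries, where Col1a2 read 2982 and 3015 FPKM. Of 4 smooth muscle genes 2 were called higher, none at 0, with sums of 276 to 955 FPKM in HE and 102 to 676 FPKM in EC. The part of these cell types in the 9 rises was not tested. In sorted bulk samples fewer cells of a type and less RNA per cell cannot be told apart. Without both HE-labelled E10.5 yolk sac libraries, Chrd, Gdf2 and Gdf15 were under the limit and not tested. Of the 42 members then tested, 2 were called, Ltbp1 and Bmp7, against 2.57% of all tested genes. The count also fell to 3 without replicate 1 of EC of the E9.5 embryo, replicate 2 of HE of the E9.5 yolk sac or replicate 1 of EC of the E10.5 embryo, and to 4 without replicate 1 of HE of the E9.5 embryo or replicate 1 of EC of the E9.5 yolk sac. It was 5 without replicate 2 of EC of the E9.5 embryo or replicate 2 of HE of the E10.5 embryo, 6 without replicate 2 of EC of the E10.5 yolk sac and 7 without replicate 2 of HE of the E9.5 embryo or replicate 1 of HE of the E10.5 embryo. Ltbp1, Gdf6 and Bmpr1a passed in 16 of 16 such runs.

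Ltbp1, which holds latent TGF-β in the matrix, differed most. Ltbp1 in EC read 8.50 and 10.8 FPKM in the E9.5 embryo, 2.52 and 4.38 in the E10.5 embryo, 7.40 and 17.2 in the E9.5 yolk sac and 13.7 and 11.3 in the E10.5 yolk sac. Ltbp1 in HE read 19.8 and 16.5 FPKM in the E9.5 embryo, 11.6 and 12.1 in the E10.5 embryo, 15.4 and 23.7 in the E9.5 yolk sac and 41.4 and 54.7 in the E10.5 yolk sac. Both HE libraries lay above both EC libraries in the E9.5 embryo, the E10.5 embryo and the E10.5 yolk sac, and the pairs overlapped in the E9.5 yolk sac. The difference was 1.24 ± 0.17 (adjusted p = 0.00562), and 1.04 without the HE-labelled E10.5 yolk sac libraries (adjusted p = 0.0333).

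Gdf6, a ligand of the BMP class, and Bmpr1a, the BMP type I receptor ALK3, were higher in HE as well. Gdf6 in EC read 3.45 and 4.16 FPKM in the E9.5 embryo, 0.160 and 0.513 in the E10.5 embryo, 1.59 and 5.23 in the E9.5 yolk sac and 2.34 and 2.20 in the E10.5 yolk sac. Gdf6 in HE read 6.35 and 7.23 FPKM in the E9.5 embryo, 1.84 and 1.49 in the E10.5 embryo, 4.85 and 8.27 in the E9.5 yolk sac and 8.60 and 6.42 in the E10.5 yolk sac. The EC libraries of the E10.5 embryo were the lowest of all 16. The HE minus EC difference of Gdf6 was 0.99 ± 0.18 (adjusted p = 0.0127) and 0.86 without the E10.5 yolk sac HE libraries (adjusted p = 0.0575), past the threshold no longer. Bmpr1a in EC read 6.73 and 7.12 FPKM in the E9.5 embryo, 2.43 and 4.14 in the E10.5 embryo, 3.67 and 8.19 in the E9.5 yolk sac and 4.04 and 5.23 in the E10.5 yolk sac. Bmpr1a in HE read 10.8 and 11.1 FPKM in the E9.5 embryo, 6.41 and 6.60 in the E10.5 embryo, 6.42 and 10.03 in the E9.5 yolk sac and 12.2 and 21.7 in the E10.5 yolk sac. Its 2 highest values were those of the HE-labelled E10.5 yolk sac libraries, and only the E9.5 yolk sac pairs overlapped. The difference of Bmpr1a was 0.88 ± 0.17 (adjusted p = 0.0144), and 0.63 without those libraries (adjusted p = 0.0846).

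Of the BMP ligands, Bmp4 and Bmp7 passed and Bmp2, Bmp5 and Bmp6 did not. Bmp4 in EC read 18.7 and 27.8 FPKM in the E9.5 embryo, 13.4 and 16.2 in the E10.5 embryo, 28.8 and 36.0 in the E9.5 yolk sac and 17.9 and 16.2 in the E10.5 yolk sac. Bmp4 in HE read 31.0 and 22.1 FPKM in the E9.5 embryo, 18.2 and 20.3 in the E10.5 embryo, 35.4 and 38.3 in the E9.5 yolk sac and 41.8 and 34.7 in the E10.5 yolk sac. HE and EC overlapped at E9.5 in both sites and were separated at E10.5 in both. Bmp4 differed by 0.47 ± 0.11 (adjusted p = 0.0233), and by 0.25 without the E10.5 yolk sac HE libraries (adjusted p = 0.262). Bmp7 in EC read 1.93 and 2.49 FPKM in the E9.5 embryo, 1.31 and 2.01 in the E10.5 embryo, 2.87 and 3.35 in the E9.5 yolk sac and 3.06 and 2.99 in the E10.5 yolk sac. Bmp7 in HE read 3.84 and 5.43 FPKM in the E9.5 embryo, 2.62 and 2.50 in the E10.5 embryo, 4.47 and 4.73 in the E9.5 yolk sac and 3.03 and 5.61 in the E10.5 yolk sac. Here the 3 settings other than the E10.5 yolk sac were separated, with HE higher in each. Bmp7 differed by 0.51 ± 0.13 (adjusted p = 0.0275), was called at 0.56 with the E10.5 yolk sac HE libraries left out (adjusted p = 0.0411), and passed in 7 of 16 runs that left out 1 library.

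The BMP modulators noggin, chordin and BMPER and the receptor-activated Smad9 rose at low levels. Nog in EC read 4.44 and 3.91 FPKM in the E9.5 embryo, 0.690 and 1.35 in the E10.5 embryo, 0.752 and 1.48 in the E9.5 yolk sac and 0.497 and 0.201 in the E10.5 yolk sac. Nog in HE read 7.94 and 6.78 FPKM in the E9.5 embryo, 3.50 and 1.81 in the E10.5 embryo, 1.55 and 1.43 in the E9.5 yolk sac and 0.664 and 0.846 in the E10.5 yolk sac. The 4 libraries of HE and EC of the E9.5 embryo were its highest. Nog differed by 0.54 ± 0.14 (adjusted p = 0.0284). Chrd in EC read 0.589 and 0.682 FPKM in the E9.5 embryo, 0.232 and 0.546 in the E10.5 embryo, 0.307 and 0.274 in the E9.5 yolk sac and 0.583 and 0.358 in the E10.5 yolk sac. Chrd in HE read 0.923 and 0.842 FPKM in the E9.5 embryo, 1.11 and 0.708 in the E10.5 embryo, 0.560 and 0.760 in the E9.5 yolk sac and 0.919 and 1.37 in the E10.5 yolk sac. Both HE libraries were above both EC libraries in all 4 settings, by 0.39 ± 0.10 over them (adjusted p = 0.0307). Smad9 in EC read 0.313 and 0.311 FPKM in the E9.5 embryo, 0.0763 and 0.189 in the E10.5 embryo, 0.704 and 0.552 in the E9.5 yolk sac and 0.811 and 0.804 in the E10.5 yolk sac. Smad9 in HE read 0.997 and 0.458 FPKM in the E9.5 embryo, 0.437 and 0.800 in the E10.5 embryo, 1.31 and 1.18 in the E9.5 yolk sac and 0.840 and 1.62 in the E10.5 yolk sac. Smad9 was likewise above in all 4 settings, at 0.41 ± 0.11 (adjusted p = 0.0380). Chrd and Smad9 were the only 2 of the 45 members with that order in all 4 settings, and 2.23% of all tested genes had it. Both reached 1 FPKM in HE libraries alone. They were thus tested only through the cell type in which they were higher, and their order is no independent support. The reverse order in all 4 settings was found for 0 members, against 1.39% of all tested genes. Bmper in EC read 0.548 and 0.243 FPKM in the E9.5 embryo, 0.323 and 0.537 in the E10.5 embryo, 0.391 and 0.192 in the E9.5 yolk sac and 0.490 and 0.131 in the E10.5 yolk sac. Bmper in HE read 0.838 and 0.974 FPKM in the E9.5 embryo, 1.35 and 2.27 in the E10.5 embryo, 0.445 and 0.503 in the E9.5 yolk sac and 0.340 and 0.123 in the E10.5 yolk sac. The highest Bmper values were those of HE of the E10.5 embryo, and the E10.5 yolk sac pairs overlapped. Bmper reached 1 FPKM in HE of the E10.5 embryo alone, so it too was tested only through HE. Bmper differed by 0.38 ± 0.11 (adjusted p = 0.0498), the nearest of the calls to the threshold, and passed in 1 of 14 runs that left out 1 library and in which it was tested. Nog passed in 8 of 16, Chrd in 6 of 14, Smad9 in 4 of 16 and Bmp4 in 10 of 16 such runs.

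The 4 genes that were lower in HE included the most abundant ligand, co-receptor and Id gene. Eng in EC read 157 and 132 FPKM in the E9.5 embryo, 204 and 201 in the E10.5 embryo, 261 and 128 in the E9.5 yolk sac and 198 and 166 in the E10.5 yolk sac. Eng in HE read 127 and 121 FPKM in the E9.5 embryo, 191 and 143 in the E10.5 embryo, 162 and 58.9 in the E9.5 yolk sac and 56.1 and 17.1 in the E10.5 yolk sac. The HE-labelled E10.5 yolk sac libraries were the lowest 2 of 16, and replicate 2 of HE of the E9.5 yolk sac was next. Eng differed by -0.98 ± 0.26 (adjusted p = 0.0350), and by -0.47 without the E10.5 yolk sac HE libraries (adjusted p = 0.270). Id3 in EC read 304 and 278 FPKM in the E9.5 embryo, 335 and 275 in the E10.5 embryo, 246 and 144 in the E9.5 yolk sac and 135 and 129.6 in the E10.5 yolk sac. Id3 in HE read 221 and 265 FPKM in the E9.5 embryo, 315 and 267 in the E10.5 embryo, 176 and 83.5 in the E9.5 yolk sac and 31.0 and 10.95 in the E10.5 yolk sac. Its order at the low end was the same as that of Eng. Id3 differed by -0.93 ± 0.21 (adjusted p = 0.0226), and by -0.32 without those 2 libraries (adjusted p = 0.322).

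Tgfb1 in EC read 83.5 and 72.2 FPKM in the E9.5 embryo, 89.1 and 87.5 in the E10.5 embryo, 105 and 56.9 in the E9.5 yolk sac and 113 and 79.4 in the E10.5 yolk sac. Tgfb1 in HE read 70.5 and 69.9 FPKM in the E9.5 embryo, 77.9 and 60.0 in the E10.5 embryo, 64.9 and 36.9 in the E9.5 yolk sac and 46.1 and 25.5 in the E10.5 yolk sac. HE was below EC in both embryo settings and the E10.5 yolk sac, and the E9.5 yolk sac pairs overlapped. Tgfb1 differed by -0.65 ± 0.17 (adjusted p = 0.0343), and by -0.39 without the E10.5 yolk sac HE libraries (adjusted p = 0.232). Tgfbr2 in EC read 10.4 and 12.3 FPKM in the E9.5 embryo, 14.7 and 17.4 in the E10.5 embryo, 46.2 and 27.1 in the E9.5 yolk sac and 39.0 and 31.1 in the E10.5 yolk sac. Tgfbr2 in HE read 9.32 and 10.6 FPKM in the E9.5 embryo, 11.9 and 15.4 in the E10.5 embryo, 27.0 and 13.6 in the E9.5 yolk sac and 18.3 and 13.4 in the E10.5 yolk sac. Only yolk sac pairs were separated, with HE lower at both stages. Tgfbr2 differed by -0.59 ± 0.16 (adjusted p = 0.0344), and by -0.42 without those 2 libraries (adjusted p = 0.201). Tgfbr2 passed in 3 of 16, Eng in 4 of 16, Tgfb1 in 6 of 16 and Id3 in 11 of 16 runs that left out 1 library.

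**Figure D2:**
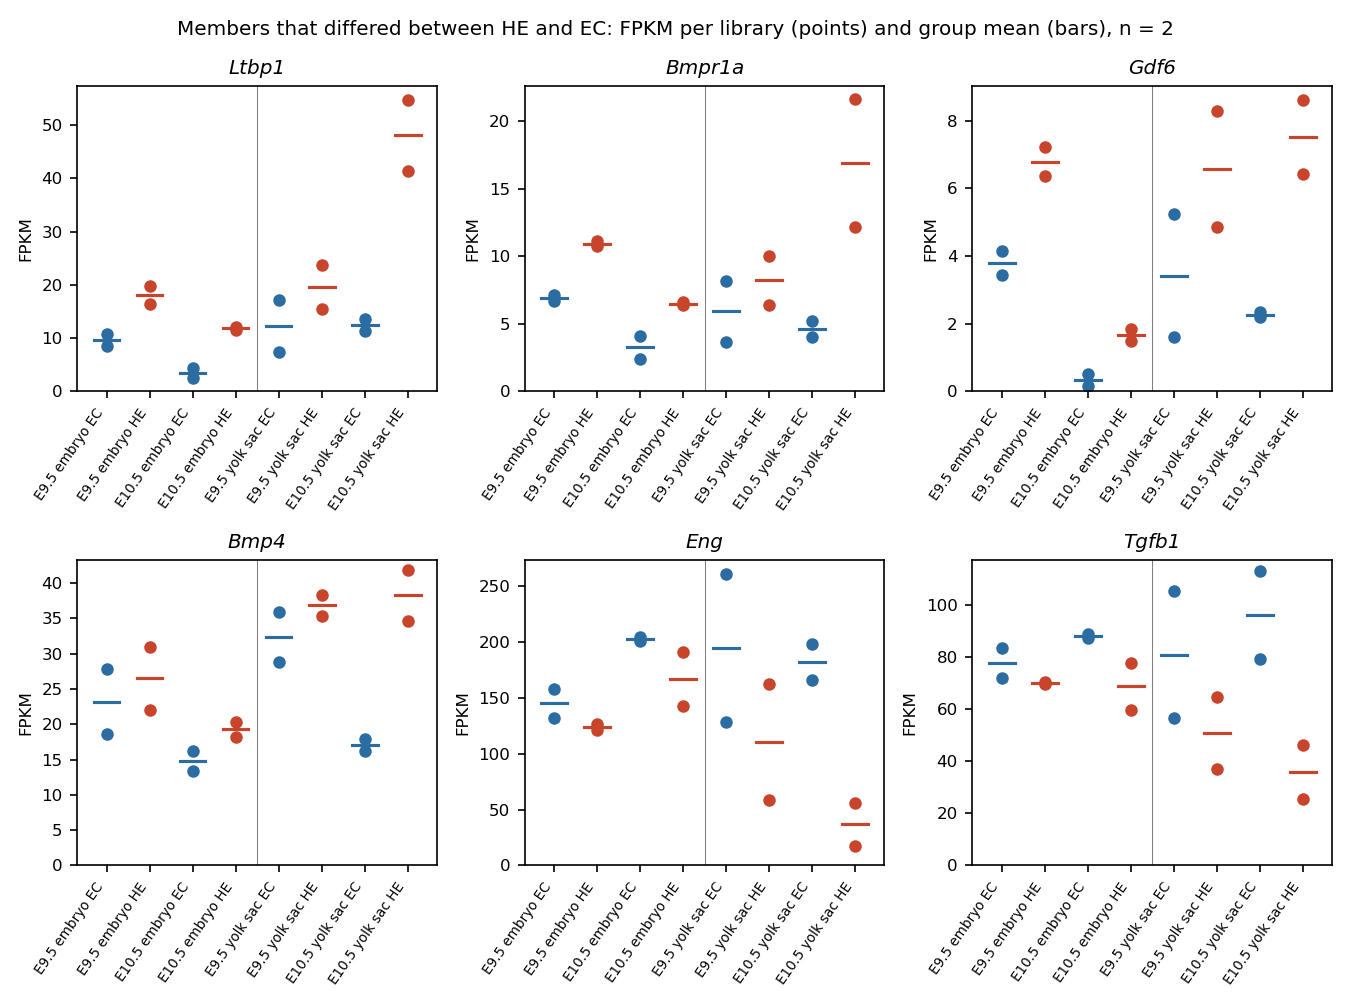
FPKM of 6 genes in each library (points; blue EC, red HE) with the mean of the 2 libraries of a group (bars), embryo to the left of the line and yolk sac to the right. Ltbp1, Bmpr1a and Gdf6 are higher in HE with no overlap outside the E9.5 yolk sac, and Eng is lowest in the HE-labelled E10.5 yolk sac libraries.

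Within single settings the members were mostly not called. In the E9.5 embryo limma called 0 members (6 at an unadjusted p under 0.05; 0.158% of all tested genes called). In the E9.5 yolk sac it called 0 (2 at an unadjusted p under 0.05; 0.0143%), and in the E10.5 embryo 0 (11 at an unadjusted p under 0.05; 0.208%). With library quality weights 3 members, Bmp6, Bmp7 and Smad6, were called in the E9.5 embryo. The 0.158% is not the share of that setting, which is not given here. A comparison of 2 libraries with 2 could not reach an exact two-sided permutation p below 0.333. In the E10.5 embryo the 5 members with the smallest unadjusted p were Ltbp1 at 1.56 ± 0.34 (adjusted p = 0.151), Bmper at 0.96 ± 0.23, the activin antagonist Fst at 1.23 ± 0.35, the ligand Gdf10 at 0.63 ± 0.19 and Nog at 0.83 ± 0.27 (adjusted p = 0.388), all higher in HE. Bmper and Gdf10 reached 1 FPKM in the HE libraries of that setting alone and so were tested only through them. The summed level of 14 mesenchyme and somite genes was also higher there, at 1030 to 1207 FPKM in HE and 214 to 611 FPKM in EC, and its part in these values was not tested.

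In the E10.5 yolk sac 11 members passed, 6 higher and 5 lower in the libraries labelled HE, where 9.57% of all tested genes were called (3.09% higher, 6.48% lower). Those lower were Id3 at -2.77 ± 0.43, Eng at -2.50 ± 0.52, Id1 at -1.54 ± 0.31, Tgfb1 at -1.44 ± 0.35 and Tgfbr2 at -1.10 ± 0.31. Those higher were Ltbp1 at 1.86 ± 0.34, Bmpr1a at 1.62 ± 0.35, Gdf6 at 1.37 ± 0.36, Bmp4 at 1.12 ± 0.22, the TGF-β and activin transducer Smad3 at 1.03 ± 0.29 and the co-receptor Tgfbr3 at 0.87 ± 0.23. Adjusted p ran from 0.00893 for Id3 to 0.0474 for Tgfbr2. All 12 endothelial genes were called lower in the same libraries, none at 0. The mesenchyme and somite genes summed to 5856 to 7341 FPKM in them and 3295 to 3961 FPKM in EC. Of these 14 genes 11 had a difference above 0, with a median of 1.05 over the 14, and 0 were called higher and 2 lower. Col1a1 was listed at 0 in both libraries labelled HE, where Col1a2 read 2982 and 3015 FPKM, against 901 and 701 FPKM in EC. The 0 of Col1a1 and the sum are therefore uncertain. The part of these cell types in the member differences was not tested. No call held in all 16 runs that left out 1 library: 0 were left without replicate 1 of EC or replicate 2 of HE of the E10.5 yolk sac, 1 without replicate 2 of EC there and 7 without each of the 4 libraries of the E9.5 embryo. No member was called with library quality weights.

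The HE-labelled E10.5 yolk sac libraries were the lowest 2 of 16 for Eng, Id1, Id3 and Smad1, which is 4 of 45 members against 9.32% of all tested genes. They were the highest 2 of 16 for 6 of 45 members against 4.86%, Bmpr1a, Gdf2, Ltbp1, Tgfb3 and Tgfbr3 among them. Gdf2 reached 1 FPKM only in these libraries and in replicate 2 of EC of the E10.5 yolk sac. It was thus tested only through the libraries in which it was highest, and its place in this count is no independent support. Whether HE and EC differed to another extent in the yolk sac than in the embryo was tested directly, and limma called 0 members (7 at an unadjusted p under 0.05; 0.107% of all tested genes called). The largest such differences were those of Id3 at -1.53 ± 0.43 (adjusted p = 0.225), Eng at -1.44 ± 0.52 (adjusted p = 0.297) and Id1 at -1.01 ± 0.31 (adjusted p = 0.238). Without replicate 1 of HE of the E10.5 yolk sac 1 member, Id3, was called. For the change of the HE minus EC difference between stages limma also called 0 (5 at an unadjusted p under 0.05; 0.0287%).

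**Figure D3:**
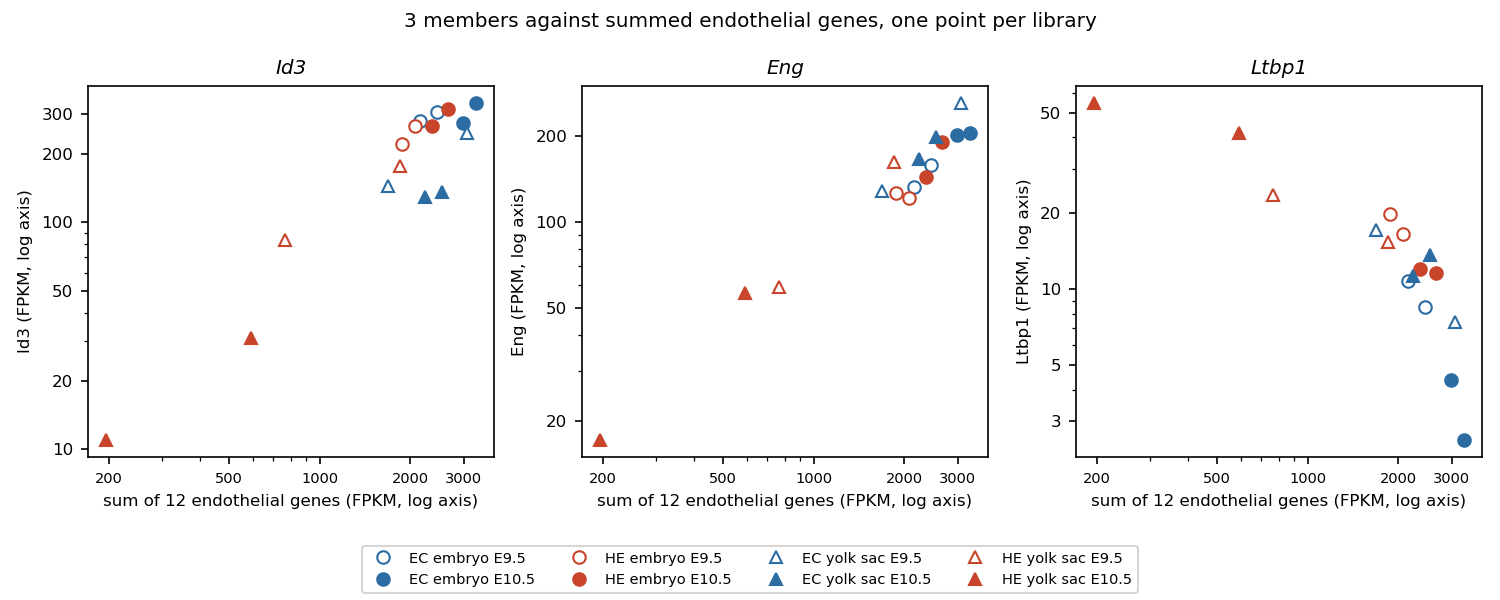
FPKM of Id3, Eng and Ltbp1 in each of 16 libraries (y axis, log scale) against the summed FPKM of 12 endothelial genes in the same library (x axis, log scale). Blue is EC and red HE, circles are embryo and triangles yolk sac, open symbols are E9.5 and filled ones E10.5. The 2 HE-labelled E10.5 yolk sac libraries lie at 196 and 593 FPKM, with the lowest Id3 and Eng and the highest Ltbp1.

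Yolk sac was compared with the embryo region within each cell type, the 2 places where hemogenic endothelium arises. In EC, 21 members differed, 10 higher and 11 lower in the yolk sac, against 34.1% of all tested genes called (15.4% higher, 18.7% lower). In HE, 23 differed, 7 higher and 16 lower, against 36.9% (14.6% higher, 22.3% lower). By role, 2 of 5 tested BMP ligands were higher in EC and 1 in HE. Of the 8 SMAD genes 3 were lower and 1 was higher in EC, and 4 were lower in HE. Of the 4 Id genes 2 were lower in EC and 3 in HE. Of the 4 tested type II receptors 1 was higher and 1 lower in EC and 0 were called in HE. The median over the members was 0.046 in EC and -0.29 in HE, and -0.10 and -0.14 over all tested genes.

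Of the calls, 13 were shared, which is 61.9% of those in EC and 56.5% of those in HE, and all 13 had the same direction. Those higher in both included Gdf15, Ltbp1 and Tgfbr3, and lower in both were Bmp1, Fst, Gdf11, Id2, Id3, Nog, Smad3, Smad5 and Smad7. Without the HE-labelled E10.5 yolk sac libraries the count in EC was again 21, against 37.6% of all tested genes, while 10 were called in HE, 2 of them higher, Tgfbr3 among them, and the others lower: Acvr2b, Bmp1, Fst, Gdf11, Nog, Smad3, Smad5 and Smad7, with 15.2% of all tested genes called. In runs that left out 1 library, 13 of the calls in EC and 16 of those in HE passed every time, and the count in EC was 13 without replicate 1 of EC of the E9.5 embryo. After rescaling by median of ratios the calls in EC were 13 higher and 8 lower in place of 10 and 11, and rescaling moved the median of all genes in HE by 0.11.

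The sites differed in other cells too. The summed level of 13 visceral endoderm and epithelium genes was at least 2306 FPKM in every yolk sac library and at most 917 FPKM in every embryo library, with 12 of 13 called higher in EC and 8 of 13 in HE, and 1 gene listed at 0 in both libraries of each E10.5 embryo group. All 7 erythroid genes were called higher in the yolk sac in both cell types, none at 0, with sums of 13555 to 52230 FPKM there and 1794 to 11274 FPKM in the embryo. Of the 12 endothelial genes 1 was called lower in EC and 11 in HE. All 5 neural genes in the table were called lower in both cell types, with sums of 7.58 to 28.7 FPKM in the yolk sac and 40.8 to 83.7 FPKM in the embryo and 3 of them at 0 in both HE-labelled E10.5 yolk sac libraries. Of the 14 mesenchyme and somite genes 6 were called higher and 5 lower in EC, and 6 higher and 6 lower in HE. Higher were also 5 of 5 megakaryocyte genes in EC and 4 in HE, and 4 of 5 tested macrophage genes in EC and 2 in HE. The part of these cell types in the site differences of the members was not tested.

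Among the ligands, Gdf11, an activin-class ligand that patterns the body axis, separated the sites most clearly. Gdf11 in EC read 2.35 and 2.45 FPKM in the E9.5 embryo, 3.33 and 3.98 in the E10.5 embryo, 0.880 and 0.884 in the E9.5 yolk sac and 0.486 and 0.766 in the E10.5 yolk sac. Gdf11 in HE read 2.79 and 3.53 FPKM in the E9.5 embryo, 4.50 and 6.01 in the E10.5 embryo, 1.11 and 1.52 in the E9.5 yolk sac and 0.733 and 0.741 in the E10.5 yolk sac. All 8 embryo libraries were above all 8 yolk sac libraries. The yolk sac minus embryo difference was -1.19 ± 0.14 in EC (adjusted p = 7.61e-05) and -1.34 ± 0.14 in HE (adjusted p = 2.74e-05). Smad5 had the same complete separation, and Tgfbr3 the reverse one, against 6.27% of all tested genes separated with the yolk sac lower and 6.09% with it higher. Within EC 6 members were separated with the yolk sac higher and 6 with it lower (13.4% and 16.2% of all tested genes), and within HE 5 and 8 (12.3% and 16.6%). Among these were Gdf15 and Smad9 in EC and Gdf2 and Bmper in HE. Each of them reached 1 FPKM only in the site in which it was higher, so it entered the counts through the filter. Tgfb2 was lower in EC of the yolk sac, at -0.999 ± 0.20 (adjusted p = 0.00257). Tgfb1 was lower in HE, at -0.74 ± 0.24 (adjusted p = 0.0327), and Gdf10 at -0.61 ± 0.14 from a mean under 1 FPKM in both sites. Neither was among the members called in HE without the E10.5 yolk sac HE libraries. Gdf10 reached 1 FPKM in HE of the E10.5 embryo alone, so it was tested only through the site in which it was higher.

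The BMP ligands that passed were higher in the yolk sac. In EC these were Bmp6 at 0.94 ± 0.19 (mean FPKM 3.87 against 1.55) and Bmp5 at 0.98 ± 0.28 (mean FPKM 3.19 against 1.07). In HE it was Bmp4 at 0.71 ± 0.15 (mean FPKM 37.5 against 22.9), which was 0.48 without the E10.5 yolk sac HE libraries (adjusted p = 0.171). Gdf15, a distant member of the family induced by stress, was higher in both cell types at 0.61 ± 0.20 in EC and 0.74 ± 0.20 in HE, from means of at most 0.0813 FPKM in the embryo. Gdf2, whose product BMP9 binds the endothelial receptor ALK1, and Gdf6 were higher in HE, at 0.99 ± 0.20 and 0.79 ± 0.25. Gdf15 and Gdf2 reached 1 FPKM in yolk sac libraries alone. They were thus tested only through the site in which they were higher, and these calls are no independent support. Without the E10.5 yolk sac HE libraries, at E9.5 alone, Gdf6 stood at -0.079 (adjusted p = 0.914), a change of sign. Gdf2 and Gdf15 were then not tested.

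The TGF-β receptor gene Tgfbr2 and the co-receptor gene Tgfbr3 were higher in yolk sac EC. Tgfbr3 in EC read 13.9 and 15.97 FPKM in the E9.5 embryo, 4.84 and 9.11 in the E10.5 embryo, 29.4 and 28.0 in the E9.5 yolk sac and 27.3 and 21.4 in the E10.5 yolk sac. Tgfbr3 in HE read 16.5 and 16.8 FPKM in the E9.5 embryo, 8.38 and 8.81 in the E10.5 embryo, 27.4 and 31.3 in the E9.5 yolk sac and 40.9 and 49.7 in the E10.5 yolk sac. Tgfbr3, the co-receptor betaglycan that presents TGF-β2, was above 21 FPKM in all 8 yolk sac libraries and below 17 FPKM in all 8 embryo libraries. Its difference was 1.31 ± 0.16 in EC (adjusted p = 9.67e-05) and 1.52 ± 0.16 in HE (adjusted p = 2.79e-05), and 0.78 in HE without the E10.5 yolk sac HE libraries (adjusted p = 0.0413). Tgfbr2, with the library values given above, was higher in yolk sac EC without overlap, at 1.32 ± 0.22 (adjusted p = 0.000841), and was not called in HE, at 0.54 ± 0.22. Acvr1b, the activin type I receptor ALK4, was higher in EC at 0.54 ± 0.17, and the activin type II receptor gene Acvr2b was lower at -0.63 ± 0.21. These calls passed in 11 of 16 and 7 of 16 runs that left out 1 library. Eng showed 0.090 ± 0.37 in EC, which was not called, and -1.35 ± 0.37 in HE (adjusted p = 0.0139). Without the E10.5 yolk sac HE libraries Eng in HE stood at -0.34 (adjusted p = 0.637).

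The extracellular antagonists Fst, which binds activins, and Nog were lower in the yolk sac. Fst in EC read 3.19 and 6.73 FPKM in the E9.5 embryo, 0.653 and 1.43 in the E10.5 embryo, 0.444 and 1.34 in the E9.5 yolk sac and 0.179 and 0.462 in the E10.5 yolk sac. Fst in HE read 5.48 and 3.62 FPKM in the E9.5 embryo, 3.04 and 4.44 in the E10.5 embryo, 0.469 and 0.790 in the E9.5 yolk sac and 1.18 and 1.89 in the E10.5 yolk sac. Fst was below 2 FPKM in all 8 yolk sac libraries, and in the embryo only EC at E10.5 reached so low. Its difference was -1.12 ± 0.25 in EC (adjusted p = 0.00483) and -1.33 ± 0.25 in HE (adjusted p = 0.00155). Nog, with the library values given above, was lower by -0.94 ± 0.19 in EC (adjusted p = 0.00276) and -1.38 ± 0.19 in HE (adjusted p = 0.000190), and HE showed no overlap between sites. Bmper was lower in HE at -0.77 ± 0.16, and at -0.37 without the E10.5 yolk sac HE libraries (adjusted p = 0.314). It reached 1 FPKM in HE of the E10.5 embryo alone and so was tested only through the embryo.

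Of the matrix proteins and proteases, Ltbp1 was higher in the yolk sac and Bmp1 lower in both cell types. Ltbp1 differed by 0.92 ± 0.24 in EC and 0.998 ± 0.24 in HE, the latter 0.075 without the E10.5 yolk sac HE libraries (adjusted p = 0.914). Bmp1 in EC read 39.2 and 32.5 FPKM in the E9.5 embryo, 45.1 and 48.8 in the E10.5 embryo, 13.6 and 16.4 in the E9.5 yolk sac and 40.05 and 27.3 in the E10.5 yolk sac. Bmp1 in HE read 47.6 and 42.7 FPKM in the E9.5 embryo, 50.5 and 54.8 in the E10.5 embryo, 19.8 and 24.9 in the E9.5 yolk sac and 47.6 and 27.1 in the E10.5 yolk sac. The E9.5 yolk sac libraries were the lowest of Bmp1, and the E10.5 yolk sac overlapped the embryo. The differences of Bmp1 were -0.85 ± 0.18 in EC (adjusted p = 0.00330) and -0.76 ± 0.18 in HE (adjusted p = 0.00557). Ltbp4 in EC read 3.39 and 2.24 FPKM in the E9.5 embryo, 9.52 and 6.65 in the E10.5 embryo, 1.73 and 1.11 in the E9.5 yolk sac and 10.2 and 3.61 in the E10.5 yolk sac. Ltbp4 in HE read 5.73 and 6.64 FPKM in the E9.5 embryo, 22.2 and 9.31 in the E10.5 embryo, 3.27 and 3.78 in the E9.5 yolk sac and 5.96 and 3.14 in the E10.5 yolk sac. Replicate 1 of HE of the E10.5 embryo was the highest, more than any other library by over 11 FPKM. Ltbp4 was lower in yolk sac HE at -1.10 ± 0.32 (adjusted p = 0.0180), and at -0.67 without the E10.5 yolk sac HE libraries (adjusted p = 0.346). Ltbp3 was higher in yolk sac EC at 0.49 ± 0.18, a call that passed in 3 of 16 runs that left out 1 library.

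Of the 8 SMAD genes Smad3, Smad5 and Smad7 were lower in the yolk sac in both cell types. Smad3 in EC read 15.6 and 15.4 FPKM in the E9.5 embryo, 10.6 and 16.1 in the E10.5 embryo, 4.87 and 6.92 in the E9.5 yolk sac and 6.98 and 4.54 in the E10.5 yolk sac. Smad3 in HE read 17.0 and 17.3 FPKM in the E9.5 embryo, 14.98 and 17.0 in the E10.5 embryo, 6.83 and 9.34 in the E9.5 yolk sac and 9.51 and 16.6 in the E10.5 yolk sac. Smad3 in EC did not overlap between the sites, and in HE replicate 2 of the E10.5 yolk sac was at the level of the embryo. Its difference was -1.18 ± 0.20 in EC (adjusted p = 0.000939) and -0.66 ± 0.20 in HE (adjusted p = 0.0230). Smad5, a BMP transducer, was lower in both, at -0.70 ± 0.14 in EC (mean FPKM 12.3 against 21.0) and -0.74 ± 0.14 in HE (mean FPKM 11.6 against 19.9). Smad7, an inhibitor of both branches, was lower at -0.60 ± 0.15 in EC and -0.82 ± 0.15 in HE. Smad1 was lower in HE at -0.60 ± 0.16, and was not among the members called in HE without the E10.5 yolk sac HE libraries. Smad9 was the exception, higher in yolk sac EC at 0.49 ± 0.16 from a mean of 0.222 FPKM in the embryo. That call passed in 8 of 16 runs that left out 1 library. Smad9 reached 1 FPKM in yolk sac libraries alone and so was tested only through that site. Smad2, Smad4 and Smad6 were not called in either cell type.

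The Id genes, targets of BMP signalling, were lower in the yolk sac where they passed, with Id4 not called in either cell type. Id1 in EC read 107 and 93.2 FPKM in the E9.5 embryo, 104 and 77.9 in the E10.5 embryo, 112 and 72.0 in the E9.5 yolk sac and 46.9 and 55.8 in the E10.5 yolk sac. Id1 in HE read 82.3 and 111 FPKM in the E9.5 embryo, 117 and 90.9 in the E10.5 embryo, 88.7 and 56.3 in the E9.5 yolk sac and 22.0 and 12.9 in the E10.5 yolk sac. Id1 in EC overlapped between the sites, and the HE-labelled E10.5 yolk sac libraries were its lowest 2 of 16. The difference of Id1 was -0.48 ± 0.22 in EC, which was not called (adjusted p = 0.111), and -1.48 ± 0.22 in HE (adjusted p = 0.000271). Id3, with the library values given above, did not overlap between the sites in either cell type. Id3 differed by -0.91 ± 0.30 in EC (adjusted p = 0.0360) and -2.44 ± 0.30 in HE (adjusted p = 8.47e-05), and Id2 by -0.55 ± 0.18 and -0.79 ± 0.18. Without the E10.5 yolk sac HE libraries no Id gene was called in HE: Id3 stood at -0.99 (adjusted p = 0.0622), Id1 at -0.43 (adjusted p = 0.337) and Id2 at -0.29 (adjusted p = 0.413). In EC the calls of Id3 and Id2 passed in 9 of 16 and 11 of 16 runs that left out 1 library.

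**Figure D4:**
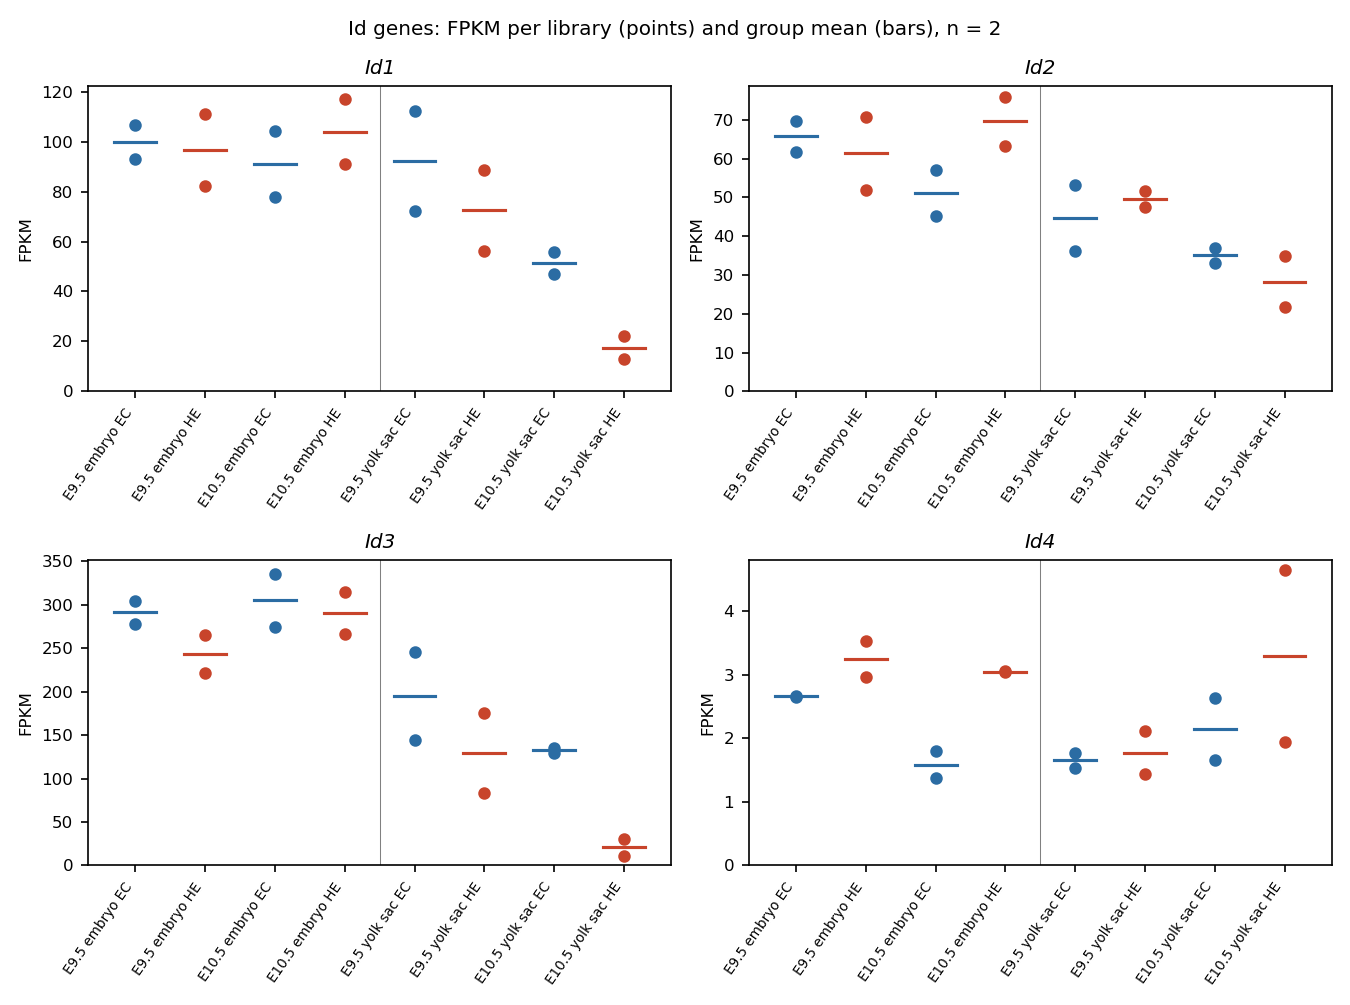
FPKM of the 4 Id genes in each library (points; blue EC, red HE) with the mean of the 2 libraries of a group (bars), embryo to the left of the line and yolk sac to the right. Id3 is above 220 FPKM in every embryo library and at 31.0 and 10.95 FPKM in the HE-labelled E10.5 yolk sac libraries, and Id4 stays below 5 FPKM throughout.

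**Figure D5:**
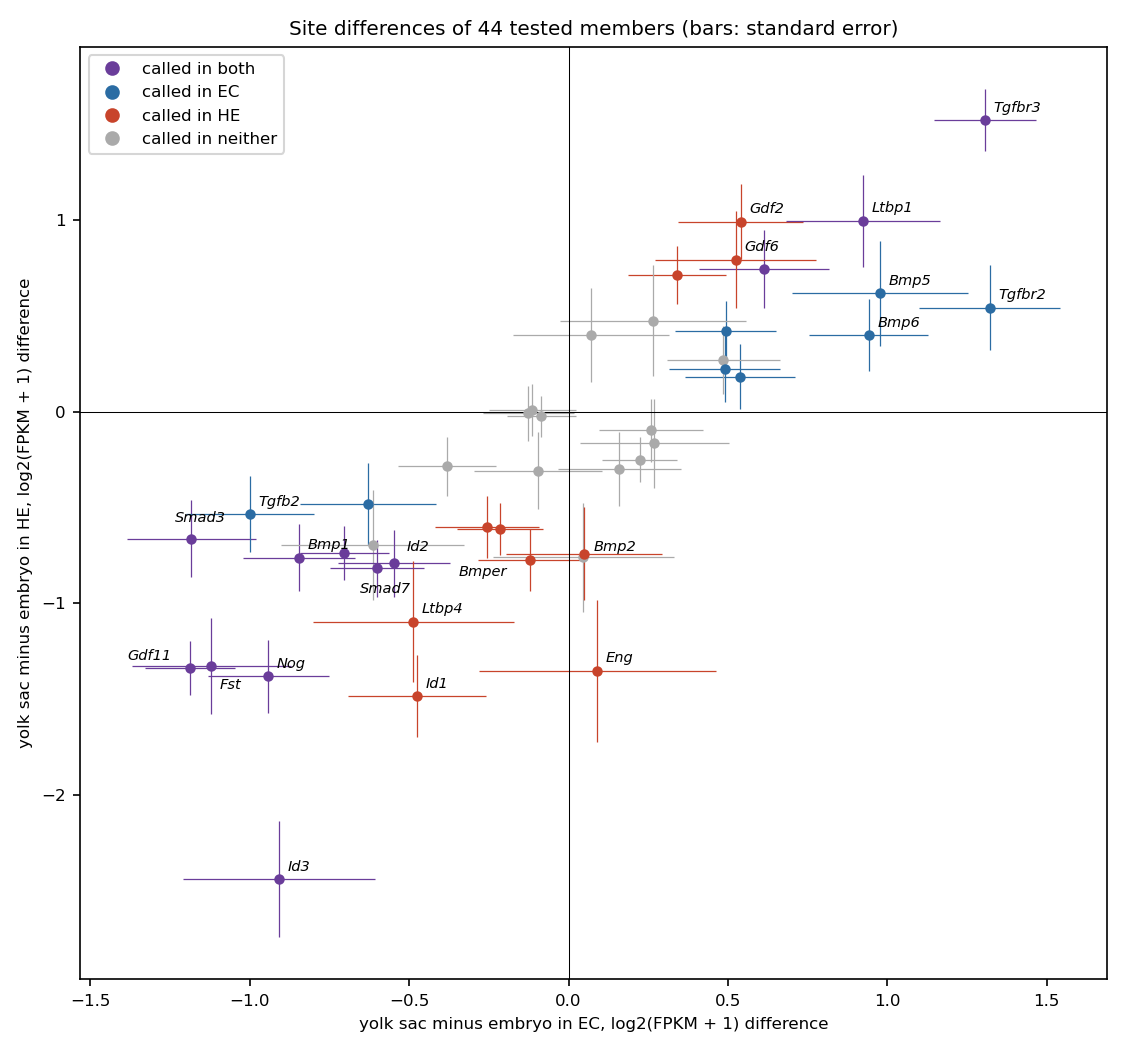
Difference between yolk sac and embryo for 44 of the 45 tested genes in EC (x axis) and in HE (y axis), both as log2(FPKM + 1) differences with standard errors (bars). Purple points were called in both cell types, blue ones in EC, red ones in HE and grey ones in neither. Tgfbr3 lies at the upper right, Gdf11, Fst, Nog and Id3 at the lower left, and Eng, Id1 and Ltbp4 were called in HE only, a contrast between cell types that passed no test.

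The promoters of a few members are shown with the motifs found in them, from RefSeq on build GRCm38.p6, as 250 bases up to the start of the transcript. The files use build mm9, so these coordinates belong to the sequence table and not to the measurements. The table held 43 of the 60 members. Bases in capitals are matches to GGCGCC, a GC-rich site known to bind BMP SMADs, or to TGTGGT, the core of the motif bound by RUNX1. Id2 and Id3 are shown as Id genes that were lower in the yolk sac, and Bmpr1a and the second start site of Ltbp1 as genes that were higher in HE.
Id2 (chr12:25096093-25096342, minus strand): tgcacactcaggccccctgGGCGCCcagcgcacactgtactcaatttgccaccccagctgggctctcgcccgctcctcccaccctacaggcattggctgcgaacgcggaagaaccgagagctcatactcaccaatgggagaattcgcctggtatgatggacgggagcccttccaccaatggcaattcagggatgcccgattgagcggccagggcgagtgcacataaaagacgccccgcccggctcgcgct
Id3 (chr4:136143572-136143821, plus strand): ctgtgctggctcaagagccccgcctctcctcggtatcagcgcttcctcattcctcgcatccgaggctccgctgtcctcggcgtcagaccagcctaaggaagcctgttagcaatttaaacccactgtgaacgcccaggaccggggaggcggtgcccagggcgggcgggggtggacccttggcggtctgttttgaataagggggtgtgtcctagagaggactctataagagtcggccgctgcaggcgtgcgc
Bmpr1a (chr14:34502547-34502796, minus strand): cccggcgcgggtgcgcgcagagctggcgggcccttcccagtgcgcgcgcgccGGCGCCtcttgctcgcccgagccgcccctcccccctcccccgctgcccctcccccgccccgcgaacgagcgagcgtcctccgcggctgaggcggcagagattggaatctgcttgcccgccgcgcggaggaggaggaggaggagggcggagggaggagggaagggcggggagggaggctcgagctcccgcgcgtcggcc
Ltbp1 (chr17:75178531-75178780, plus strand): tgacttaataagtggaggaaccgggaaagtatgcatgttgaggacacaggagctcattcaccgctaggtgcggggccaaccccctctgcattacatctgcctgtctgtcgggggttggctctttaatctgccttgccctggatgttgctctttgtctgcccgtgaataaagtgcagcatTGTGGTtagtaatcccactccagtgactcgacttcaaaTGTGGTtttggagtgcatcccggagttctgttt

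Searched on both strands, GGCGCC, which reads the same on each, stood 231 to 226 bases before the start of Id2 and 198 to 193 bases before that of Bmpr1a. TGTGGT stood 71 to 66 and 33 to 28 bases before the second start site of Ltbp1. The first start site of Ltbp1, not shown, had neither motif, and Id3 had neither motif in this window. Over the members, 11 of 43 genes (25.6%) had GGCGCC, against 10.8% of 27025 genes in the table, and member promoters had a median GC content of 63.8% against 52.4% over all promoters. TGTGGT was found in 2 of 43 (4.65%), Ltbp1 and the untested Bmp15, against 15.9% of all genes. A match of letters is no evidence of binding, and its absence from this window says nothing of the factor.

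The stages E10.5 and E9.5 were compared within each cell type, averaged over the sites. In EC 3 members passed: Nog and Bmp4 were lower at E10.5 and Ltbp4 was higher, against 2.02% of all tested genes called (1.06% higher, 0.960% lower). In HE 5 passed, with Id1, Bmp6, Nog and Smad6 lower at E10.5 and Ltbp3 higher, against 2.28% (1.20% higher, 1.08% lower). Nog, the BMP antagonist, was the only gene called in both. It differed by -1.005 ± 0.19 in EC (adjusted p = 0.0224; mean FPKM 0.686 against 2.65) and by -0.87 ± 0.19 in HE (adjusted p = 0.0408; mean FPKM 1.70 against 4.43). Bmp4 in EC fell by 0.74 (adjusted p = 0.0332) from a mean of 27.8 to 15.9 FPKM. Ltbp4 in EC rose by 1.42 ± 0.32 (adjusted p = 0.0459; mean FPKM 7.50 against 2.12), with replicate 2 of EC of the E10.5 yolk sac near the E9.5 values.

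In HE, Bmp6 stood at -0.88 ± 0.19 (adjusted p = 0.0354; mean FPKM 2.52 against 5.22), Id1 at -0.95 ± 0.22 (adjusted p = 0.0458), Smad6 at -0.54 ± 0.12 (adjusted p = 0.0404) and Ltbp3 at 0.76 ± 0.18 (adjusted p = 0.0480). Ltbp3 reached 1 FPKM in E10.5 libraries alone, so it was tested only through the stage in which it was higher. Without the HE-labelled E10.5 yolk sac libraries the comparison in HE was that of the embryo alone, where Id1 stood at 0.11 (adjusted p = 0.904), a change of sign. There Bmp6 at -1.46 and Nog at -1.23 were the 2 members called in HE, against 2.19% of all tested genes, and with those libraries left out 7 were called in EC over both sites (Bmp1, Bmp2, Bmp4, Gdf6, Ltbp4, Nog and Smad6) against 3.94%. No stage call passed in all 16 runs that left out 1 library. In EC the count was 0 without either E9.5 embryo EC library, replicate 2 of EC of the E9.5 yolk sac, replicate 1 of EC of the E10.5 embryo or replicate 1 of EC of the E10.5 yolk sac, 1 without either E9.5 yolk sac HE library and 7 without either E10.5 yolk sac HE library. In HE it was 0 without any of the 4 libraries of the E9.5 embryo, replicate 1 of HE of the E9.5 yolk sac or replicate 2 of HE of the E10.5 embryo, 1 without either EC library of the E10.5 embryo, and 2 without replicate 1 of HE of the E10.5 embryo or replicate 2 of HE of the E10.5 yolk sac. It was 3 without replicate 2 of HE of the E9.5 yolk sac. Rescaling by median of ratios left 2 higher and 2 lower in EC, and 2 higher and 0 lower in HE.

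Other genes of the pathways, 48 listed and 39 of them tested, were counted beside the members. HE minus EC over all settings had 7 higher and 4 lower, against the 12.4% of all tested genes given above. Thbs1, which activates latent TGF-β, was higher in both HE libraries than in both EC libraries of all 4 settings, at 1.26 ± 0.15 (adjusted p = 0.00354; mean FPKM 19.6 against 5.70), and at 1.001 without the E10.5 yolk sac HE libraries (adjusted p = 0.0323), the 1 gene of the list then called. In the E10.5 yolk sac 2 were higher and 4 lower. Acvrl1, the endothelial BMP9 receptor ALK1, was lower there at -2.16 ± 0.35 (adjusted p = 0.00914). Also lower there were Nrros, which holds latent TGF-β on myeloid cells, at -2.47 ± 0.51, the receptor-binding Fkbp1a at -1.25 ± 0.28 and Hey1 at -1.38 ± 0.30. Thbs1 was higher there at 2.02 ± 0.31. Acvrl1, Fkbp1a and Nrros fell in the same libraries in which the endothelial genes fell, and the part of endothelial content was not tested. Of 5 tested macrophage genes 1, Mrc1, was called lower there, at 18.1 and 4.08 FPKM in HE and 72.6 and 65.0 FPKM in EC, while Csf1r read 3.34 and 3.98 FPKM in HE and 2.52 and 2.52 FPKM in EC.

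Between sites 13 of the 39 were lower and 4 higher in yolk sac EC, and 19 were lower and 3 higher in HE, where all tested genes had 18.7% lower and 15.4% higher in EC and 22.3% lower and 14.6% higher in HE. Of the listed genes Hey1 differed most in both cell types, at -2.18 ± 0.21 in EC (mean FPKM 8.01 against 39.1) and -3.41 ± 0.21 in HE (mean FPKM 4.41 against 51.7). The homeobox target Msx1 was at -1.81 ± 0.24 in EC and -1.91 ± 0.24 in HE, the SMAD repressor Skil at -1.37 ± 0.21 and -1.33 ± 0.21, and the TGF-β target Pmepa1 at -1.74 ± 0.26 and -1.22 ± 0.26. The secreted antagonist Sost was at -2.12 ± 0.22 and -2.95 ± 0.22, and the BMP co-receptor Rgma at -1.24 ± 0.28 and -1.19 ± 0.28. Passing in HE with differences over 1 were also Tll1, Sostdc1, Atoh8, Tgif1, Msx2 and Nbl1, between -1.44 for Tll1 and -1.02 for Nbl1. Higher in yolk sac EC were the Nodal inhibitor Lefty1 at 1.56 ± 0.23, Nrros at 1.36 ± 0.36, Thbs1 at 1.23 ± 0.22 and Acvrl1 at 1.11 ± 0.25. In HE these were Thbs1 at 1.72 ± 0.22, Lefty1 at 1.20 ± 0.23 and the matrix protein gene Tgfbi at 1.13 ± 0.25. Lefty1 reached 1 FPKM in yolk sac libraries alone and Sostdc1 in embryo libraries alone. Each was thus tested only through the site in which it was higher. Without the E10.5 yolk sac HE libraries 0 were higher and 13 lower in HE.

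Between stages, Tgfbi was higher at E10.5 in EC at 1.35 ± 0.25 (adjusted p = 0.0201; mean FPKM 26.1 against 9.52) and in HE at 1.57 ± 0.25 (adjusted p = 0.00922), the latter 0.93 without the E10.5 yolk sac HE libraries (adjusted p = 0.255). Msx1 and Msx2 were lower in EC at -1.40 ± 0.24 and -1.16 ± 0.27. Sost and Hey1 were lower in HE at -1.47 ± 0.22 and -0.94 ± 0.21. Without the E10.5 yolk sac HE libraries, in the embryo alone, neither was called. Sost then stood at -1.25 (adjusted p = 0.0813) and Hey1 at -0.56 (adjusted p = 0.390). Msx2 at -1.71 (adjusted p = 0.0492) was the 1 gene of the list then called in HE, against 2.19% of all tested genes.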

How the data were processed

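The authors deposited 1 table of FPKM (mapped fragments scaled by transcript length and library size) for 33531 gene symbols in 16 libraries. Cufflinks, featureCounts and build mm9 are named per the submitters' processing notes, without version or role. The aligner, the annotation, strand use and the handling of shared reads were not given in the sources used here. Cells were sorted into Trizol-LS or a serum buffer, per the labels' protocols, and which library had which is not given there, so this could not be examined as a batch. Depth is unknown: below 0.3 FPKM the steps of values gave 7 of 15 libraries a clear ratio, 0.697 to 0.986 times the reads of 1 reference library.

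Values were used as deposited and transformed as log2(FPKM + 1). Genes with at least 1 FPKM in at least 2 libraries were tested (13955; 19576 were not). limma 3.58.1 (R 4.3.3) fitted 8 group means over the 16 libraries (mean trend; residual degrees of freedom 8, prior 3.68), and 11 comparisons were taken, each two-sided and adjusted by Benjamini-Hochberg over all tested genes. Averages weight settings equally. The fit was tested on simulated data. Alternatives were a pseudocount of 0.1, no filter, median-of-ratios scaling, a replicate block, library quality weights, leaving out each library and leaving out both HE-labelled E10.5 yolk sac libraries. The members, the lists of roles, of other pathway genes and of cell markers, and the rule below were chosen with earlier results of these data known. Members called in a comparison (up to 10 per direction) and the highest member of each role are named, and library values are given for those called in HE against EC over all settings, those with a site or stage difference of at least 1, and the highest of each role. Other pathway genes are named where called with a difference of at least 1, and a few near it or not called were added after their values were seen. Counts cover all members, 1 of which is not reported here. No identical replicate columns were found.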

Additional observations from a re-analysis of the deposited data

How the results depend on the processing

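Members are counted as called in each comparison. Shares of all tested genes are given above only for the main settings and for leaving out both HE-labelled E10.5 yolk sac libraries. For the other settings the counts do not show whether the members moved more than other genes. Without the low-value filter 7 were called for HE against EC over all settings, 6 in the E10.5 yolk sac, 1 between stages in EC and 1 in HE. With a pseudocount of 0.1, 1 was called between stages in HE, and with median-of-ratios scaling 2. Library quality weights gave 3 in the E9.5 embryo, 0 in the E10.5 yolk sac, 5 between stages in EC and 0 in HE. Without both HE-labelled E10.5 yolk sac libraries the counts were 2 over all settings, 10 between sites in HE, 7 between stages in EC and 2 in HE. That setting leaves E9.5 alone for the sites in HE and the embryo alone for the stages in HE. It also turned the sign of Gdf6 between sites in HE, to -0.0792, and of Id1 between stages in HE, to 0.11. No other named difference changed sign under any of these settings. Leaving out 1 library at a time gave 3 to 17 for HE against EC over all settings, 0 to 12 in the E10.5 yolk sac, 13 to 23 between sites in EC, 18 to 26 between sites in HE, 0 to 7 between stages in EC, 0 to 6 between stages in HE and 0 to 1 for the interaction of cell type with site. The cause of these shifts was not tested. Same-numbered replicates were not paired: over 28 pairs of groups their deviations correlated at -0.26 to 0.38, with 8 over 0.1. With the replicate number as a block 6 members were called between stages in EC, and the other counts were within 1.5 times. Of 1645 recomputed values of the named differences, 1247 kept direction and side of the threshold and 396 kept direction only. With 2 libraries a group and unknown depth, a difference that was not called may still exist.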
